A study of Oryza longistaminata with 12 samples.

Results

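This report describes how the transcriptome of an ammonium-deprived root of *Oryza longistaminata*, a wild rice that spreads by rhizomes, changed when the root of the connected partner ramet was given ammonium. The comparison used 6 of the 12 RNA-sequencing libraries of the study, chosen by their sample titles: 3 libraries of −N split roots and 3 libraries of −N roots. In both groups the sampled root stood in 0 mM NH4Cl for 24 h. The partner root stood in 2.5 mM NH4Cl in the −N split group and in 0 mM in the −N group, so the groups differed only in the partner's supply. The remaining 6 libraries came from roots kept in 2.5 mM NH4Cl whose partner root had either 2.5 mM (+N) or 0 mM (+N split). All plants were of strain IRGC10404, grown in hydroponic culture with 1 mM NH4Cl as the only nitrogen source, and pairs of young ramets at a similar leaf stage were cut from the rhizome for the treatment. The study's statistics section says of its graphs that independently prepared pairs were used. It does not say this of the sequenced libraries in particular, nor whether −N split and +N split libraries came from the 2 sides of the same pairs, so the p-values measure the spread between these libraries.

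Ammonium taken up by a rice root is fixed by glutamine synthetase and glutamate synthase into glutamine and glutamate, from which aminotransferases pass the nitrogen on to other amino acids. The carbon acceptors come from glycolysis and the citrate cycle, where phosphoenolpyruvate (PEP) is the branch point between pyruvate and oxaloacetate. In a clonal plant the rhizome can carry water, nutrients and signals between ramets, so the state of a root can depend on the supply of its neighbour as well as on its own.

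The −N split libraries held between 40509615 and 42516387 counted reads and the −N libraries between 39071838 and 56252511. The title and source name of −N replicate 1 place it in the −N group, whereas its treatment text describes a split pair. The title was followed, as it was for all samples. On the second principal component of all 12 libraries (13.3% of the variance) this library lay at −40.6, within the −N range of −45.3 to −23.9, and the −N split libraries lay between 19.6 and 35.2. For gene lists and named genes, counts and calls that change without −N replicate 1 are given with the value obtained when it was left out. Most counts of gene families are given from the full fit only. Where a call is said to be lost, the libraries whose omission ends it are named by group and number (−N split 2, −N 1). Levels are given as CPM, the read count scaled to library size after TMM normalization (trimmed mean of M-values), changes as log2 fold changes of −N split against −N, and a gene is called when its Benjamini-Hochberg adjusted p in edgeR's quasi-likelihood test was under 0.05 over all genes tested. In root samples taken whole, fewer cells of a type and less RNA per cell cannot be told apart.

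A supplied partner was accompanied by lower expression of more genes than it was by higher expression. Of 25005 genes tested, 684 (2.74%) were lower and 317 (1.27%) were higher in −N split than in −N roots. The lower genes changed more, with a median log2 fold change of −0.96 against 0.66 for the higher genes, and 323 lower genes against 65 higher genes changed at least 2-fold. At least 4-fold changes were found in 120 lower and 2 higher genes, and 47 genes were lower at least 8-fold. The values of the 3 and 3 libraries did not overlap for any of the 684 lower genes and for 316 of the 317 higher genes, which is read against 24% of all genes tested whose libraries did not overlap. When single libraries of the comparison were omitted, 370 lower and 97 higher genes were called in the absence of −N replicate 1, 718 and 259 in that of −N replicate 2, and 408 and 157 in that of −N replicate 3. Omitting −N split replicate 1 gave 686 and 278, omitting −N split replicate 2 gave 399 and 122, and omitting −N split replicate 3 gave 420 and 204. In every one of these 6 fits 302 lower and 80 higher genes kept their call.

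**Figure D1:**
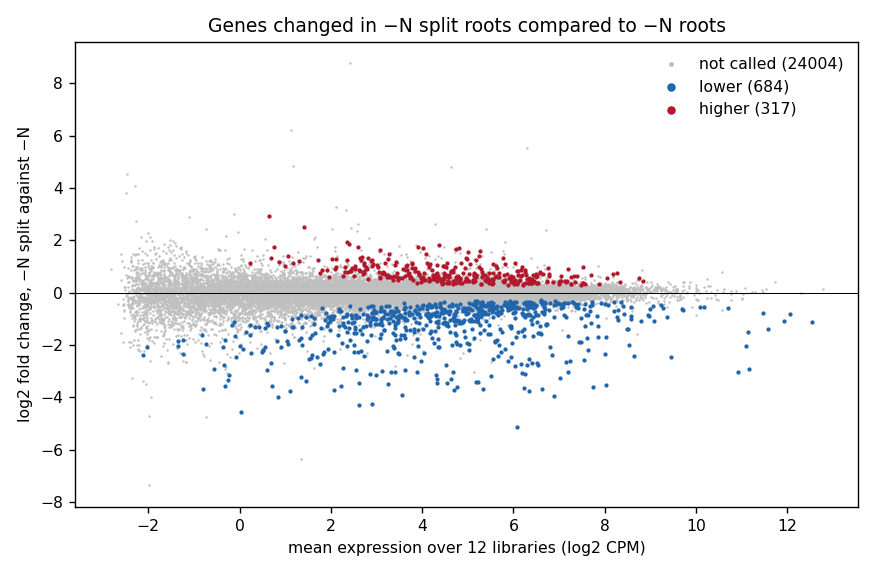
Log2 fold change of −N split against −N roots (vertical axis) by mean expression over the 12 libraries in log2 CPM (horizontal axis), with each point a gene. The 684 genes called lower reach down to −5.13 and the 317 called higher reach up to 2.92, against 24004 genes not called.

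Functional descriptions were at hand for 3091 of the tested genes, taken from the study's lists of genes that responded to its treatments in these same libraries. They are therefore not a random sample of the transcriptome: 10.9% of them were lower and 3.79% higher in −N split, and the lists of genes below are read against these shares.

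Genes of fermentation and of the low-oxygen response had the second highest share of lower members among the 18 lists examined, after the 4 nitrate reductase genes. Of 14 members tested, 10 (71.4%) were lower in −N split roots, none was higher, and the list's median was −1.60 on the log2 scale, against −0.04 over all genes with a description and 0.02 over all genes tested. Of the 14 members, 11 stand in the study's list of genes raised in +N split over +N roots, a choice made on libraries that this comparison does not use. In the lists made with −N split or −N libraries, 7 stand among genes higher in +N than in −N split roots. Another 2 lists, of +N against −N roots in either direction, hold 3 each. The share of lower members is thus partly fixed by this choice. Of all genes called lower with a supplied partner in supplied roots, 58.2% were lower in deprived roots too. The 10 called members comprised genes of ethanol production, of plant cysteine oxidases and of a hypoxia-induced protein. In this and the following lists, members described beyond the 3 of smallest p and the genes with a name were chosen after their values were seen.

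Pyruvate decarboxylase turns pyruvate into acetaldehyde, the first step of ethanol fermentation. Its gene OL05G001771 measured 71.6, 302 and 319 CPM in −N split replicates 1, 2 and 3, and 2210.1, 1333 and 2177 CPM in the −N replicates. Every −N library stood far above every −N split library, and −N split replicate 1 was the lowest of the 6. The log2 fold change was −3.05 (SE 0.449, adjusted p = 0.00252, edgeR). A second pyruvate decarboxylase gene, OL03G001290, had a log2 fold change of −0.57 and was not called (adjusted p = 0.0974).

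Alcohol dehydrogenase reduces acetaldehyde to ethanol and regenerates NAD. The alcohol dehydrogenase 1 gene OL11G000555 measured 61.9, 62.1 and 98.0 CPM in the −N split replicates and 493, 300.3 and 425 CPM in the −N replicates. The groups were well apart, with −N replicate 2 the lowest of its group, and the log2 fold change was −2.46 (SE 0.233, adjusted p = 0.000174). The neighbouring gene OL11G000556 fell by 1.51 and the gene unmappedContigsG000545 by 1.38 on the log2 scale (adjusted p = 0.00225 and 0.00161). These may be near-identical copies between which reads were split, so the change of either alone is uncertain. The member OL07G002496 had a log2 fold change of −0.60 and was not called (adjusted p = 0.0922), but was on omitting −N 2 (0.0266).

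Plant cysteine oxidases use oxygen to mark ERF-VII transcription factors for degradation in *Arabidopsis*, and their own genes are raised there when oxygen is short. The gene described as plant cysteine oxidase 2, OL09G001188, measured 1.81, 2.19 and 2.80 CPM in −N split and 10.4, 10.1 and 13.1 CPM in −N roots, which is a log2 change of −2.30 (SE 0.165, adjusted p = 2.76e-05). The 3 values of each group lay close together and far from those of the other. This is partly fixed, as the gene was chosen by its small p. All 4 genes with a DUF1637 domain, which is the domain of this enzyme family, were also lower. OL01G000575 measured 27.9, 28.2 and 36.8 CPM in −N split and 161, 133 and 187 CPM in −N roots, which is a log2 change of −2.37 (SE 0.148, adjusted p = 7.79e-06). For unmappedContigsG001274 the level was between 2.83 and 3.33 CPM in all −N split libraries and between 20.1 and 48.0 CPM in −N libraries, a fall by 3.62 on the log2 scale. OL03G002532 fell by 3.42. The change of the fourth, OL05G002624, was smaller (−0.94, adjusted p = 0.0177), and its call ended on omitting −N 1 (adjusted p = 0.0723) and without −N split 1, −N split 2 or −N 3 (0.0602, 0.0858 and 0.0710). The gene OL12G000084, which holds the conserved region of hypoxia-induced proteins, measured 85.2, 96.6 and 87.1 CPM in −N split and 413, 203 and 244 CPM in −N roots (log2 change −1.68, adjusted p = 0.00169), with −N replicate 1 above the other −N libraries.

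The 10 called members shared an order of libraries. The lowest −N library was replicate 2 for all 10, and the lowest −N split library was replicate 1 for 8 of them. This order was not particular to them. Among the 9 lower glycolysis genes, −N replicate 2 was the lowest −N library for 8, and −N split replicate 1 the lowest of its group for all 9. In nitrate reductase and in ammonium assimilation, −N replicate 2 was lowest for all 3 lower genes, and −N split replicate 1 for 1. Over the 6 fits that each left out 1 library, between 9 and 11 members of the low-oxygen list were lower, and 9 kept their call in every fit. Among the 4 groups the −N split mean was the lowest for all 10 called members and the +N split mean the highest for 9. Of all 684 lower genes, 619 (90.5%) had their lowest mean in −N split and 417 their highest in +N split roots. Both counts for the 10 members are partly fixed by how the members were listed and called.

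**Figure D2:**
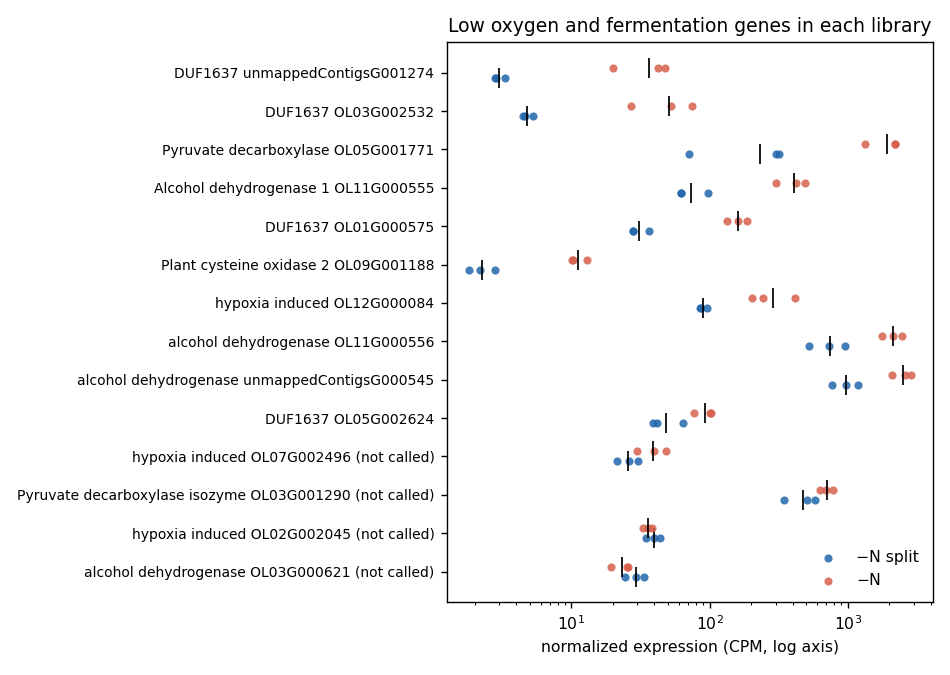
Normalized expression (CPM, log axis) of the 14 genes of the low-oxygen and fermentation list in the 3 −N split (blue) and 3 −N (red) libraries, with the group mean as a vertical bar. The 10 called genes separate without overlap, from 3.62 on the log2 scale in unmappedContigsG001274, while the 4 genes marked as not called lie close together or overlap.

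Of 37 glycolysis genes tested, 9 (24.3%) were lower and 4 (10.8%) higher, with a median log2 fold change of −0.20. Of the 37, 12 stand in the study's list of genes raised in +N split over +N roots. Its list of genes higher in +N than in −N split roots holds 23, so the share of lower members is partly fixed by this choice. The lower genes covered the steps from glucose 6-phosphate to 3-phosphoglycerate. *OlPFK5* (OL05G002151), a phosphofructokinase that commits hexose phosphate to glycolysis, measured 61.4, 71.8 and 92.6 CPM in −N split and 193, 137 and 209 CPM in −N roots (log2 change −1.26, SE 0.186, adjusted p = 0.00255). *OlGAPC1* (OL02G002091), a cytosolic glyceraldehyde-3-phosphate dehydrogenase, measured 735, 1042 and 1205 CPM against 2100.2, 1931 and 2295 CPM (−1.09, SE 0.162, adjusted p = 0.00279). In both genes −N split replicate 1 was the lowest library and no library crossed into the other group. *OlPFP1α3* (OL08G000976), described as a phosphofructokinase, fell by 0.92, and the glucose-6-phosphate isomerase gene OL06G000956 by 0.59 on the log2 scale (adjusted p = 0.00497 and 0.00239).

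The calls of the other lower glycolysis genes rested on single libraries. The aldolase gene *OlALDC1* (OL01G004030) fell by 0.77 (adjusted p = 0.0120) and the triosephosphate isomerase gene *OlTPI1* (OL01G000318) by 0.55 (adjusted p = 0.0134). The call of *OlALDC1* ended on omitting −N split 2 or −N 3 (adjusted p = 0.0547 and 0.0546), and that of *OlTPI1*, as well as that of its likely copy unmappedContigsG001015, without −N 1 or −N 3 (0.0575 and 0.0555 for *OlTPI1*). *OlPFPB* (OL06G000911), a pyrophosphate-dependent phosphofructokinase subunit outside the glycolysis list, fell by 0.66 (adjusted p = 0.0114), and lost its call on omitting −N split 2 or −N 1 (0.0580 and 0.0545). Without −N replicate 1 the list held 5 lower genes, and over all single libraries left out between 4 and 9. The isomerase *OlGPI* (OL03G003308, −0.37, adjusted p = 0.0705) and the enolase *OlENO1* (OL10G000304, −0.20, adjusted p = 0.326) were not called.

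The glycolysis genes that rose were a phosphofructokinase, a glyceraldehyde 3-phosphate dehydrogenase, a phosphoglycerate kinase and an enolase. The phosphofructokinase gene OL10G000754 measured 22.7, 27.0 and 27.8 CPM in −N split and 14.3, 15.4 and 15.6 CPM in −N roots, which is a log2 change of 0.77 (SE 0.0919, adjusted p = 0.000583). Its lowest −N split library stood well above its highest −N library. The glyceraldehyde 3-phosphate dehydrogenase gene OL02G000468 rose by 0.44 (adjusted p = 0.00871), with 107, 112 and 108 CPM against 82.5, 86.4 and 72.6 CPM. The phosphoglycerate kinase gene OL10G000930 rose by 0.61 and the enolase gene OL03G000999 by 0.43 (adjusted p = 0.0231 and 0.0442). Both calls ended on omitting −N split 2 (0.0945 and 0.123), −N split 3 (0.0789 and 0.151) or −N 3 (0.0894 and 0.122), that of OL10G000930 also after omitting −N 2 (0.0507), and that of OL03G000999 also after omitting −N 1 (0.173).

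Called genes around PEP changed in opposite directions, and the genes of an enzyme did not all change alike. PEP carboxykinase forms PEP from oxaloacetate, and its gene OL10G000420 measured 12.4, 12 and 22.9 CPM in −N split and 192, 129 and 249 CPM in −N roots. The highest −N split library was far below the lowest −N library, and the log2 fold change was −3.59 (SE 0.325, adjusted p = 0.000115), or 12.04-fold lower. The adjacent gene OL10G000421 fell by 3.01 (adjusted p = 0.000199), whereas another PEP carboxykinase gene, OL03G001047, had a log2 fold change of 0.41 and was not called (adjusted p = 0.116).

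Pyruvate phosphate dikinase also forms PEP, from pyruvate. Its gene *OlPPDKA* (OL03G002044) measured 111, 293 and 273 CPM in −N split and 1521, 1325 and 2293 CPM in −N roots, which is a log2 change of −2.92 (SE 0.334, adjusted p = 0.000453). All −N values were several times higher than all −N split values, and −N split replicate 1 was again the lowest. PEP carboxylase runs the other way, adding carbon to PEP to give oxaloacetate, and its gene OL08G001025 was the most significant higher gene of the citrate cycle and organic acid list. It measured 70.4, 69.1 and 57.2 CPM in −N split against 19.7, 25.1 and 21.0 CPM in −N roots, which is a log2 change of 1.58 (SE 0.197, adjusted p = 0.000840). The named PEP carboxylase gene *OlPPC4* (OL01G000707) was not called (−0.31, adjusted p = 0.395).

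Within the citrate cycle and organic acid list as a whole, 4 of 23 genes (17.4%) were higher and 2 (8.70%), both PEP carboxykinases, were lower. The other 3 higher genes had small changes: an isocitrate dehydrogenase (OL04G001426, 0.36), a citrate synthase (OL02G000658, 0.32) and a fumarase (OL03G001557, 0.32). None of these 3 was called without −N 1 (adjusted p = 0.113, 0.0866 and 0.0587), and the first pair kept their call only on omitting −N split 1 (0.0170 and 0.0234) and the fumarase in no such fit (0.0530 to 0.0984), so between 1 and 3 members of the list were higher over these fits.

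Of 14 genes of ammonium assimilation, 3 were lower and 1 was higher, and the median log2 fold change was 0.00. Without −N replicate 1, 2 were lower and none was higher. Of the 14, 7 stand in the study's list of genes raised in +N split over +N roots. Its list of genes higher in +N than in −N split roots holds 11, so the count of lower members is partly fixed by this choice. *OlNADH-GOGAT2* (OL05G002363), a glutamate synthase that makes glutamate from glutamine and 2-oxoglutarate, measured 2.03, 1.83 and 4.12 CPM in −N split and 8.67, 8.11 and 19.4 CPM in −N roots. The −N replicate 3 library was clearly higher than the other −N libraries, and all −N split libraries were below all −N libraries. The log2 fold change was −2.17 (SE 0.371, adjusted p = 0.00614). Both levels were far below those of supplied roots, which averaged 145 ± 37.0 (+N) and 637 ± 66.5 CPM (+N split) as mean ± SD (n = 3).

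Aspartate aminotransferase passes nitrogen from glutamate to oxaloacetate. *OlAspAT* (OL06G001607) measured 19.9, 18.9 and 25.5 CPM in −N split and 56.2, 42.2 and 47.9 CPM in −N roots, which is a log2 change of −1.19 (SE 0.130, adjusted p = 0.000362). The groups did not overlap. A second aspartate aminotransferase gene, OL01G003115, fell by 0.52 (adjusted p = 0.0141), and lost its call on omitting −N split 2 or −N 1 (0.0501 and 0.0653). *OlAlaAT1* (OL10G000682), an alanine aminotransferase, was not called (−0.43, adjusted p = 0.0527), but was on omitting −N split 3 (0.0255).

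Glutamine synthetase, which joins ammonium to glutamate, did not show a detectable difference. *OlGS1;1* (OL02G003003) measured 1325, 1623 and 1423 CPM in −N split and 1405, 1279 and 1367 CPM in −N roots, and its log2 fold change of 0.11 had a 95% confidence interval from −0.14 to 0.36. *OlGS1;2* (OL03G000840) measured 90.8, 127 and 160.1 CPM against 124, 132 and 123 CPM, with an interval from −0.38 to 0.37. The values of the 2 groups overlapped in both genes, and the −N split libraries of *OlGS1;2* spread more widely than the −N libraries.

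Asparaginase frees ammonium from asparagine, and its gene OL04G002634 was the only called member of this list that was higher. It measured 452, 660.2 and 536 CPM in −N split and 332, 368 and 282 CPM in −N roots, which is a log2 change of 0.75 (SE 0.159, adjusted p = 0.0204). All −N split values lay above all −N values, yet the call ended on omitting −N 1 (adjusted p = 0.0723), −N split 2 (0.0917), −N split 3 (0.0535) or −N 3 (0.0894). The mean in both supplied groups was 175 CPM, below either deprived group.

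Nitrate reductase converts nitrate to nitrite, and 3 of its 4 genes were lower although no nitrate was given as nitrogen source. Of the 4 genes, 3 stand in the study's list of genes raised in +N split over +N roots. Its list of genes higher in +N than in −N split roots holds 2, so the share of lower genes is partly fixed by this choice. OL08G001450 measured 4.95, 6.70 and 5.93 CPM in −N split and 16.9, 11.5 and 15.1 CPM in −N roots, which is a log2 change of −1.30 (SE 0.149, adjusted p = 0.000453). OL08G001452 fell by 1.39 and OL02G000926 by 1.17 (adjusted p = 0.000453 and 0.00125). The pair OL08G001450 and OL08G001452 may share reads. These 3 calls held in every fit that left out a library. The fourth gene, OL02G003220, had a log2 fold change of 0.40 (adjusted p = 0.389) and averaged 3.68 CPM in −N split, 2.78 CPM in −N and 40.2 CPM in +N roots.

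Among 30 genes for the transport of nitrogen compounds, 7 (23.3%) were lower and 4 (13.3%) were higher. Without −N replicate 1, 7 were lower and 2 were higher. None of the 3 ammonium transporter genes was called. The gene model that covers *OlAMT1;2* and *OlAMT1;3* (OL02G002258) measured 7.25, 9.26 and 17.5 CPM in −N split and 19.5, 25.4 and 27.1 CPM in −N roots. All −N split values were below the −N values, but the log2 fold change of −1.08 (SE 0.306) did not pass the test (adjusted p = 0.0742, and 0.109 without −N replicate 1). It passed on omitting −N split replicate 3, the highest of its group (−1.54, adjusted p = 0.0133), and the other 4 omissions gave adjusted p between 0.136 and 0.244. Genes for carriers of amino acids and peptides moved in both directions. Amino acid permease 6, OL01G003853, fell by 1.14 (adjusted p = 0.00131), the neutral amino acid transporter gene OL06G002030 by 1.06 (adjusted p = 0.00182) and the oligopeptide transporter gene OL02G002350 by 0.67 (adjusted p = 0.00271). The nitrate transporter gene OL02G002068 rose by 1.31 (adjusted p = 0.00926) and the amino acid permease gene OL01G004313 by 0.74 (adjusted p = 0.00859). In OL02G002068 the −N split libraries reached 8.36, 9.02 and 5.87 CPM, near the +N mean of 8.41 CPM, and the −N libraries 2.01, 3.81 and 3.46 CPM. A further permease gene, OL04G001144, rose by 0.59 (adjusted p = 0.0113) and lost its call on omitting −N 1 (0.0569) or −N split 2 (0.0509).

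Of 27 genes of the aspartate family and other amino acid synthesis, 6 (22.2%) were lower and none was higher. Without −N replicate 1, 4 were lower. Of the 27, 9 stand in the study's list of genes raised in +N split over +N roots. Its list of genes higher in +N than in −N split roots holds 15, so the share of lower members is partly fixed by this choice. *OlAK* (OL03G003830), an aspartate kinase at the head of lysine, threonine and methionine synthesis, measured 49.0, 62.0 and 66.4 CPM in −N split and 141, 94.6 and 128 CPM in −N roots (log2 change −1.04, SE 0.179, adjusted p = 0.00670). No −N split library reached the lowest −N library. The branched-chain aminotransferase gene OL04G001978 fell by 0.74 and the amino acid kinase gene OL07G001881 by 0.60 (adjusted p = 0.00343 and 0.00512). *OlASADH* (OL03G003219), the aspartate semialdehyde dehydrogenase of the next step, fell by 0.45 (adjusted p = 0.0206), and its call ended on omitting −N split 1, −N split 2, −N 1 or −N 3 (0.0680, 0.0674, 0.0922 and 0.0546). *OlAK-HSDH1* (OL08G000963) was not called (−0.20, adjusted p = 0.427).

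Genes of transcriptional regulation were called no more often than described genes in general. Of 167 genes in the list, 17 (10.2%) were lower and 2 were higher. Without −N replicate 1, 13 were lower and none was higher. The lower members were led by genes with an AP2 domain, the DNA-binding domain of the AP2/ERF family. OL03G000575 measured 105, 117 and 116 CPM in −N split and 474, 387 and 493 CPM in −N roots, 4.00-fold lower with a log2 fold change of −2.00 (SE 0.119, adjusted p = 5.95e-06). The 3 −N split libraries were within a narrow range and all −N libraries stood far above them. This is partly fixed, as OL03G000575 was chosen by its small p. The AP2 genes OL01G001287 and OL01G001279 fell by 3.09 and 3.08. They had nearly equal values in each library, and reads may have been split between them. OL07G002505 fell by 3.66. Of 14 described AP2 genes, 6 were lower, and of 16 WRKY and 20 NAC (no apical meristem) genes none was called. These family counts were chosen after their values were seen.

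Genes with a DUF581 domain encode FCS-like zinc finger proteins, which bind the energy-sensing kinase SnRK1 in *Arabidopsis*. OL06G002570 measured 19.7, 17.2 and 19.5 CPM in −N split and 71.6, 57.5 and 72.3 CPM in −N roots, which is a log2 change of −1.84 (SE 0.102, adjusted p = 5.95e-06). The undescribed gene unmappedContigsG000105 had nearly the same values (−1.90, adjusted p = 5.95e-06) and may be a copy. OL06G000133 measured 39.03, 41.6 and 46.2 CPM against 249.7, 156 and 237 CPM, a fall by 2.34 (adjusted p = 2.76e-05). In OL06G002570 and OL06G000133 the −N split libraries varied little, and both were chosen by small p among called genes without overlap. Of 9 genes of the family, 3 were lower, the third (OL02G002048, −0.59) only until −N split 1, −N split 3, −N 1 or −N 3 was left out (adjusted p = 0.107, 0.133, 0.154 and 0.0989).

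Early nodulin genes, named after their activity in legume nodules, held some of the largest changes. Of 9 genes with this description, 6 with close identifiers (OL06G000247 to OL06G000255) fell by between 3.52 and 4.56 on the log2 scale. The other 3 were not called, with log2 fold changes of −0.04 (OL06G002320), 0.48 (OL07G001012) and 1.26 (OL07G000993). OL06G000253 measured 25.8, 34.9 and 43.5 CPM in −N split and 559, 251 and 383 CPM in −N roots (log2 change −3.52, adjusted p = 0.000154). Even the lowest −N library, replicate 2, stood far above the highest −N split library. The fall of 4.56 was that of OL06G000247, at 0.15, 0.02 and 0.05 CPM in −N split and 3.43, 0.66 and 1.56 CPM in −N roots. OL06G000248 and OL06G000249 reached at most 0.92 and 0.36 CPM in −N split, so these 3 changes start from very few reads. In all 6 genes −N replicate 1 was the highest −N library. As genes of like description the 6 genes may share reads, and they were singled out after their values were seen. The largest fall among all called genes was that of OL03G003255, a gene of unknown function that measured 4.93, 3.16 and 1.63 CPM in −N split and 127, 82.4 and 132 CPM in −N roots, 35.1-fold lower (−5.13, SE 0.388, adjusted p = 2.76e-05). It was also chosen after its values were seen.

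In the list of heat shock and stress proteins, 8 of 55 genes (14.5%) were lower and 1 was higher, while the median of the list was 0.11. The lower genes were 6 universal stress proteins and 2 glutathione S-transferases, and none was a heat shock protein. The 6 were among 14 described universal stress protein genes, whose median log2 fold change was −0.08. Without −N replicate 1, 7 genes of the list were lower. The universal stress protein gene OL03G001367 measured 3.67, 1.81 and 4.72 CPM in −N split and 43.4, 23.6 and 44.1 CPM in −N roots (−3.44, SE 0.337, adjusted p = 0.000177). OL05G000484, of the same family, fell by 2.10, and the glutathione S-transferase gene OL10G001443 by 3.26, from between 44.5 and 129.97 CPM to between 9.21 and 9.98 CPM. In all 3 genes every −N split library was far below every −N library. The gene OL04G000458, with a rhodanese domain, fell by 3.19, and the tetratricopeptide repeat gene OL01G004091 by 1.09 (adjusted p = 2.76e-05 and 7.05e-05).

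Of 160 protein kinase genes, 13 (8.12%) were lower and 2 were higher, a smaller share than among all described genes. Without −N replicate 1, 9 were lower and none was higher. The smallest p belonged to a CBL-interacting protein kinase gene, a class activated by calcium sensors: OL09G000868 measured 9.26, 10.4 and 8.71 CPM in −N split and 50.1, 27.3 and 30.9 CPM in −N roots (−1.93, SE 0.206, adjusted p = 0.000295). The −N replicate 1 library was the highest, and without it the log2 fold change was −1.62 (adjusted p = 0.000251). The leucine-rich repeat receptor-like kinase gene OL11G000384 fell by 1.76 and the lectin-domain receptor kinase gene OL08G000145 by 1.15 (adjusted p = 0.00176 and 0.000493).

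Of 37 hormone pathway genes, 2 were lower and 1 was higher. Cytokinin dehydrogenase degrades cytokinins, and its gene OL01G000590 measured 4.31, 4.51 and 4.67 CPM in −N split and 11.5, 11.8 and 8.64 CPM in −N roots (−1.24, adjusted p = 0.00123). The auxin efflux carrier gene OL01G003349 fell by 0.83 (adjusted p = 0.00273). The oxophytodienoate reductase gene OL06G000725, of the class that takes part in jasmonate synthesis, rose by 0.79 (adjusted p = 0.0419) and lost its call on omitting −N split 2 (0.169), −N split 3 (0.0828), −N 1 (0.159), −N 2 (0.0525) or −N 3 (0.123).

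Of 71 cell wall and phenylpropanoid genes, 9 (12.7%) were lower and 3 were higher. The phenylalanine ammonia-lyase gene OL02G002286, whose product opens the phenylpropanoid pathway, measured 3464, 3675 and 4096 CPM in −N split and 8768, 6391 and 9009 CPM in −N roots (−1.10, SE 0.171, adjusted p = 0.00343). The pectinesterase gene OL01G003289 fell by 1.203 (adjusted p = 0.00226). In contrast, the DUF588 gene OL07G001068, of a family of plant membrane proteins, rose by 1.14, and OL03G000596, described as hydroxycinnamoyl-CoA shikimate/quinate hydroxycinnamoyltransferase, an enzyme of lignin precursors, by 1.01 (adjusted p = 0.000783 and 0.00234). OL03G000596 measured 26.7, 39.1 and 31.0 CPM against 17.3, 13.6 and 17.3 CPM, without overlap. Over the fits that left out a library, between 5 (without −N replicate 1) and 13 members of the list were lower. Between 2 (without −N replicate 1) and 4 were higher.

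Of 35 mineral nutrient genes, 5 were lower and 3 were higher. Without −N replicate 1, 3 were lower and 1 was higher. The purple acid phosphatase gene OL09G000821 fell by 2.74 (adjusted p = 0.00337), and the gene OL09G001185, described as a sodium:sulfate symporter, by 0.91 (adjusted p = 0.00343). The reductase gene OL07G001412, of the family that reduces activated sulfate, rose by 1.07 (adjusted p = 0.00881). Among 25 sucrose and trehalose genes the trehalose-phosphatase gene OL02G003108 rose by 0.59 (adjusted p = 0.00873). The trehalose-phosphatase gene OL06G000772 (−1.28, adjusted p = 0.0306) and the sucrose-cleaving enzyme gene OL03G001901 (−0.59, adjusted p = 0.0475) were lower. Both calls ended on omitting −N split 1 (0.0871 and 0.130), −N split 3 (0.0983 and 0.0636), −N 1 (0.124 and 0.185) or −N 3 (0.0851 and 0.0967), and that of OL03G001901 also after omitting −N split 2 (0.120).

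Of 53 nucleosome, tubulin and cell division genes 2 were lower, a tubulin gene (OL03G002560, −0.47, adjusted p = 0.0329) and a microtubule-associated gene (OL03G002929, −0.75, adjusted p = 0.0440), and neither was called without −N 1 (0.0790 and 0.179), −N split 1 (0.0578 and 0.0731), −N split 2 (0.0765 and 0.152), −N split 3 (0.116 and 0.121) or −N 3 (0.0672 and 0.0790). OL03G002560 was not called without −N replicate 2 either (0.0909). The microtubule-associated gene OL02G000197 was not called (−0.42, adjusted p = 0.0633). Of 12 genes of the pentose phosphate pathway and plastid reductant, the ferredoxin-NADP reductase gene OL07G000290 was higher (0.50, adjusted p = 0.0207), the ferredoxin gene OL03G002551 was lower (−1.16, adjusted p = 0.0478), and the root isozyme of the reductase, OL03G003355, was not called (0.29, adjusted p = 0.0922). The calls of OL07G000290 and OL03G002551 ended on omitting −N split 2 (0.0954 and 0.0779), −N split 3 (0.0568 and 0.150), −N 1 (0.0532 and 0.119) or −N 3 (0.0894 and 0.178), and that of OL03G002551 also after omitting −N split 1 (0.0878).

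**Figure D3:**
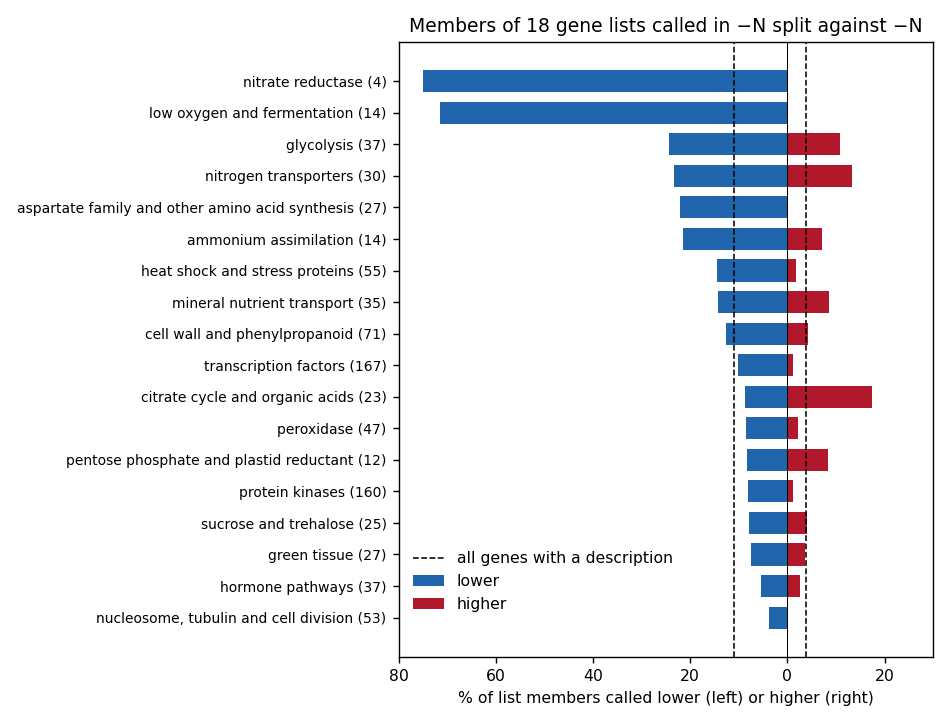
Percentage of the members of each of 18 gene lists called lower (blue, to the left) or higher (red, to the right) in −N split against −N roots, with the number of members tested in parentheses. Dashed lines mark the 10.9% lower and 3.79% higher among all genes with a description. The nitrate reductase list (3 of 4 genes) and the low-oxygen list (71.4%) reach farthest to the left.

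The higher genes had smaller changes and came from varied families. The cytochrome P450 gene OL06G002065, described as CYP71D7, of a class of enzymes in specialized metabolism, measured 7.16, 10.1 and 8.84 CPM in −N split and 2.64, 2.49 and 1.97 CPM in −N roots (1.88, SE 0.219, adjusted p = 0.000503). The peroxidase 5 gene OL05G000437 measured 63.5, 81.5 and 92.4 CPM against 35.2, 34.6 and 38.7 CPM (1.13, SE 0.123, adjusted p = 0.000340). In both genes the −N libraries were alike and every −N split library stood clear above them. Lack of overlap was a condition for the choice of both genes by their p-value. The peroxidase 5 gene was one of 47 peroxidase genes, of which 4 were lower and no other was higher. The calls of the lower genes unmappedContigsG001116 (−1.08, adjusted p = 0.0176) and OL01G004450 (−1.23, adjusted p = 0.0233) ended on omitting −N 1 (0.0656 and 0.0960) and without −N split 3 (0.0510 and 0.0794), that of OL01G004450 also after omitting −N split 2 (0.104). Without −N replicate 1 no peroxidase was lower.

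Further higher genes were chosen by their p-value among called genes whose libraries did not overlap. They included OL12G000535, without a description, which rose by 0.88 (adjusted p = 0.000411), and OL03G000613, with the MatE domain of extrusion transporters, by 1.05 (adjusted p = 0.00157). OL03G000613 measured 15.3, 19.96 and 14.8 CPM in −N split and 6.69, 8.41 and 9.10 CPM in −N roots. The glutaredoxin gene OL04G001635, a class of small redox proteins that use glutathione, rose by 0.80 (adjusted p = 0.00220). Genes described as a polysaccharide biosynthesis protein (OL06G001990), a testis-specific kinase (OL01G003449) and a mitochondrial chaperone (OL01G001215) rose by 0.65, 0.64 and 0.63.

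Set beside the supplied roots, −N split roots stood at an extreme for most lower genes. The −N split mean was the lowest of the 4 group means for 619 of the 684 lower genes (90.5%), against 27.8% of all genes tested, and 417 of them had their highest mean in +N split roots. The −N split mean was the highest for 206 of the 317 higher genes (65.0%), against 31.1% of all genes tested. These counts share the −N split libraries with the test that called the genes, and are given as a description. For PEP carboxykinase OL10G000420 the mean was 533 ± 97.7 CPM in +N split, 120.1 ± 37.2 in +N, 190.0 ± 59.7 in −N and 15.8 ± 6.19 in −N split roots (mean ± SD, n = 3). *OlPPDKA* followed the same order of its extremes, with 5664 ± 558 CPM in +N split, 1524 ± 379.7 in +N, 1713 ± 511 in −N and 226 ± 99.7 in −N split roots, and its +N and −N values overlapped. In *OlAspAT* the order was +N split, +N, −N and −N split, with 221 ± 14.9, 136 ± 10.1, 48.8 ± 7.04 and 21.4 ± 3.61 CPM.

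**Figure D4:**
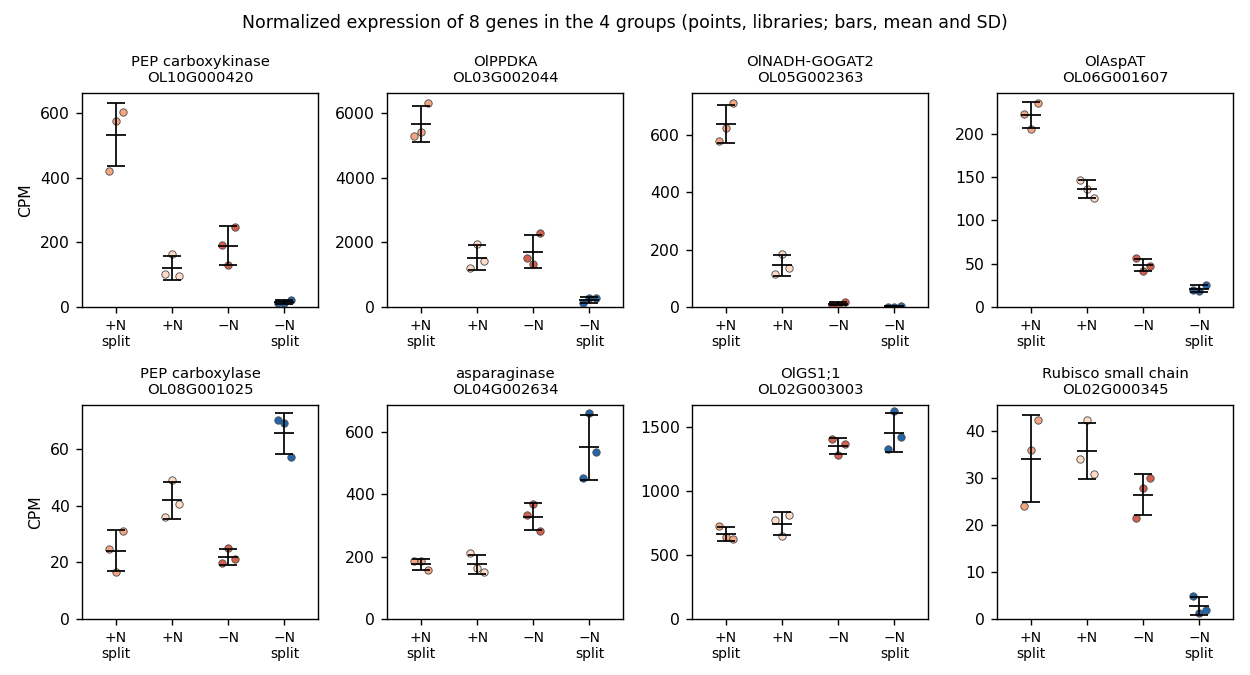
Normalized expression (CPM, axes from 0) of 8 genes in the 4 groups, with points for the 3 libraries of each group and bars for the mean and SD. PEP carboxykinase (OL10G000420), *OlPPDKA*, *OlNADH-GOGAT2* and *OlAspAT* are highest in +N split and lowest in −N split roots, the PEP carboxylase gene OL08G001025 and asparaginase are highest in −N split, *OlGS1;1* is alike in both deprived groups, and the Rubisco small chain gene OL02G000345 is low only in −N split.

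The same question can be asked in supplied roots, where +N against +N split gives the effect of a supplied partner on a root with its own ammonium. That comparison shares no library with −N split against −N. It called 170 genes lower (0.68%) and 26 higher (0.104%) with a supplied partner. Of the 170, 99 were also lower in the deprived roots (58.2% of the 170 and 14.5% of the 684), and of the 26, 6 were also higher there (23.1% of the 26 and 1.89% of the 317). One gene was called in opposite directions: the dehydrogenase gene OL02G000468 was higher with a supplied partner in deprived roots and lower in supplied roots (−0.48, adjusted p = 0.0181). These counts depended on single libraries of the supplied groups: 57 genes were lower on omitting +N replicate 1, 7 on omitting +N replicate 3, 31 on omitting +N split replicate 2 and 6 on omitting +N split replicate 3, of which 33, 5, 20 and 4 were also lower in deprived roots. The count in both was 63 on omitting +N split replicate 1, and the 26 higher genes became 39 on omitting +N replicate 1 and 0 on omitting +N split replicate 3. The direction of the fold change did not rest on the call. Of the 684 genes, 601 (87.9%) had a log2 fold change below 0 in the supplied roots, against 45.8% of all genes tested, and 245 of the 317 higher genes (77.3%) had one above 0. When single libraries were omitted, the share of lower genes with a fold change below 0 ranged from 76.4% (−N split replicate 1 omitted) to 93.1% (−N split replicate 3 omitted). The median in supplied roots was −0.39 for the 684 and 0.17 for the 317, closer to 0 than in the deprived roots.

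Among the fermentation genes, 5 of the 10 lower members were also called lower with a supplied partner in supplied roots, and among the glycolysis genes 8 of 9, beside 14.5% of all 684 lower genes. These shares are partly fixed by the choice of members, since 11 of the 14 fermentation and 12 of the 37 glycolysis genes came from the study's list of genes raised in +N split over +N roots, called on the same supplied libraries. *OlGAPC1*, for example, had log2 fold changes of −1.09 in deprived and −0.92 in supplied roots, and *OlNADH-GOGAT2* of −2.17 and −2.14 (adjusted p = 0.0244 and 0.0144 in supplied roots). For the pyruvate decarboxylase gene OL05G001771 the change in supplied roots was −1.97 and was not called (adjusted p = 0.0588). In PEP carboxykinase OL10G000420 it was −2.15 (adjusted p = 0.0116). None of the differences between the effects in deprived and supplied roots passed the test for these 4 genes (adjusted p between 0.284 for OL10G000420 and 0.991 for *OlNADH-GOGAT2*).

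A direct test of the difference between the effects called 16 of 25005 genes (0.064%), and 2304 at an unadjusted p under 0.05. In 13 of the 16 the fold change was lower in the deprived roots and in 3 it was higher. Omitting −N split replicate 2 or +N replicate 2 left 7 such genes, omitting −N split replicate 1 gave 36, omitting −N replicate 2 gave 59 and omitting any of the other 8 libraries gave 9 or 10. The smallest p belonged to the DUF581 gene OL06G002570, which fell by 1.84 in deprived roots and had a log2 fold change of −0.41 in supplied roots (difference −1.42, SE 0.141, adjusted p = 0.00537). In supplied roots it averaged 46.2 ± 3.00 (+N) and 61.6 ± 1.32 CPM (+N split, n = 3), a small gap beside the one between −N split and −N roots. The DUF1637 gene OL01G000575 (−2.37 and −0.56, adjusted p of the difference 0.00537) and the AP2 gene OL03G000575 (−2.00 and −0.67, adjusted p of the difference 0.00874) also fell more in deprived roots. In supplied roots the AP2 gene was itself called lower with a supplied partner (adjusted p = 0.0220). OL06G002570 and OL01G000575 were not called there (0.0844 and 0.101). The DUF588 gene OL07G001068 rose by 1.14 in deprived roots and had a log2 fold change of −0.20 in supplied roots (adjusted p of the difference 0.0374).

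**Figure D5:**
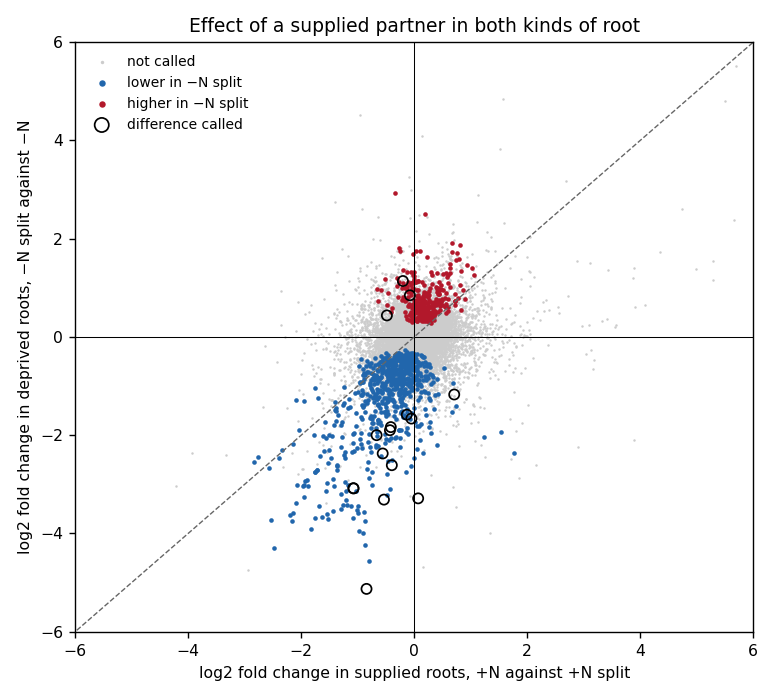
Log2 fold change with a supplied partner in deprived roots (−N split against −N, vertical axis) and in supplied roots (+N against +N split, horizontal axis), with each point a gene and circles for the 16 genes whose difference was called. Most genes called lower in deprived roots lie left of 0 on the horizontal axis (601 of 684), and 4 genes lie outside the axis limits of 6.

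Markers of green tissue were examined because a root sample can carry shoot tissue; root markers with an identifier were not used here. Of 27 such genes, 2 were lower, 1 was higher and the median log2 fold change was −0.43. Their summed level was 2126, 769 and 666 CPM in −N split replicates 1, 2 and 3 and 1495, 2169.7 and 2181.9 CPM in the −N replicates, so −N split replicate 1 was as high as the −N libraries and the groups overlapped. No member was under 1 CPM in all 6 libraries. The highest member reached between 128 and 597 CPM in a library. The Rubisco small chain gene OL02G000345, part of the enzyme that fixes carbon dioxide in leaves, measured 4.89, 1.35 and 1.86 CPM in −N split and 21.6, 27.9 and 29.999 CPM in −N roots (−3.29, SE 0.382, adjusted p = 0.000493). In the supplied groups it averaged 35.8 ± 5.97 (+N) and 34.1 ± 9.34 CPM (+N split), above the −N values. The photosystem II gene OL01G002237 (PsbP) fell by 1.12 (adjusted p = 0.0114) and OL04G001733 (PsbQ) rose by 0.59 (adjusted p = 0.0405). The call of OL01G002237 ended on omitting −N split 2 or −N split 3 (0.0517 and 0.0510), and that of OL04G001733 without −N split 1 (0.0954), −N split 2 (0.123), −N split 3 (0.0696), −N 1 (0.123) or −N 3 (0.144). Without −N split replicate 1, 11 of the 27 genes were lower. The part of green tissue in the other results was not tested.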

How the data were processed

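RNA of root tissue was sequenced after poly(A) library preparation (TruSeq mRNA). Per the labels and the study's methods, the authors made the count values with bcl2fastq, HISAT2 (against the *O. longistaminata* genome of its Information Resource) and featureCounts, and normalized them with edgeR; the sources used here state no version or strand setting. The deposited whole-series table holds raw read counts of 29335 gene models. The deposited log2 CPM values equal those of edgeR with a prior count of 2 and were only checked. No column was left unused (0).

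The members and lists were chosen with earlier results of these data known. Counts of all 12 libraries were fitted together in edgeR 4.0.16 (R 4.3.3), with 4 group means, filterByExpr (minimum count 10, minimum total 15), TMM scaling, a quasi-likelihood test with 8 residual degrees of freedom, and Benjamini-Hochberg adjustment over 25005 genes. SE is the log2 fold change divided by the square root of F. An exact permutation test of 3 against 3 cannot go below 0.1 and was not used. On simulated counts of −N split against −N, with 200 of 24830 genes changed 2-fold, 60% of the changed genes were recovered and 4% of the calls were false.

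The genes named are the 10 higher and 10 lower described genes of smallest p without overlap, the 2 of smallest p in each direction described or not, the 19 genes with a name, the 3 of smallest p in each of the 18 lists, and the gene of smallest p in the difference test. Other genes and all family counts were chosen after their values were seen. Descriptions and names came from the study's supplementary lists, of which 3 were read in part. Gene lengths, positions and sequences were not used here, so levels are not compared between genes. Alternatives were DESeq2 1.42.0 (Wald test and size factors), the likelihood ratio test, other filters and thresholds, a fit of the 6 libraries alone, a replicate block and the omission of each library. No 2 libraries of a group agreed within sampling noise (chi-square per gene between 25.2 and 37.5). The SE and p-values come from the spread between libraries and not from the total counts alone. The counts cover counting error only as far as reads are independent molecules.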

Additional observations from a re-analysis of the deposited data

Results flagged for a closer look

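In 16 genes the effect of a supplied partner differed between deprived and supplied roots by the test of the difference itself (edgeR, adjusted p between 0.00537 and 0.0402), and each is given here as the log2 fold change in deprived roots minus that in supplied roots. The differences were −1.42 for the DUF581 gene OL06G002570 and −1.47 for its possible copy unmappedContigsG000105, −1.82 for the DUF1637 gene OL01G000575, −1.33 for the AP2 gene OL03G000575, and −2.01 and −2.00 for the AP2 genes OL01G001287 and OL01G001279, between which reads may be split. The Rubisco small chain gene OL02G000345 differed by −3.36, the L-gulonolactone oxidase gene OL02G000183 by −1.88 and the ShK domain gene OL03G003498 by −1.45. Genes without a description were OL03G003255 (−4.29), OL07G001710 (−2.78), OL04G002533 (−2.22) and OL01G003312 (−1.61). The 3 positive differences were 1.34 in the DUF588 gene OL07G001068, 0.92 in the dehydrogenase gene OL02G000468 and 0.92 in OL08G000568. All 16 genes were also called in deprived roots, 13 lower and 3 higher. The L-gulonolactone oxidase gene measured 14.1, 11.4 and 9.56 CPM in −N split and 32.2, 25.3 and 21.7 CPM in −N roots, and its log2 fold change in supplied roots was 0.71 (adjusted p = 0.126), opposite in sign.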

How the results depend on the processing

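The DESeq2 Wald test called 678 higher, 1202 lower and 333 difference genes, and edgeR's likelihood ratio test 548, 1028 and 253. At adjusted p under 0.01 the counts were 76, 286 and 7, and with a 2-fold minimum 65 higher and 323 lower. Leaving out single libraries gave 97 to 278 higher, 370 to 718 lower and 7 to 59 difference genes. Of the 81 named genes, 14 lost their call without −N replicate 1, 16 at the stricter threshold and 25 with the fold minimum. The log2 fold change of *OlGS1;2* (OL03G000840), not called, ranged from −0.22 to 0.18 over single libraries left out, and turned above 0 without −N split replicate 1 (0.18) or −N replicate 2 (0.03). DESeq2 size factors (311 higher and 694 lower), the fit of the 6 libraries alone (213 and 497), no filter (309 and 665) and a filter of 1 CPM in 3 libraries (310 and 757) kept each count within 1.5 times. The median of all genes moved from 0.018 to 0.014 with size factors. With 3 libraries a group the self-test missed 40% of 2-fold changes.

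Deviations from the group means gave no sign that the replicate numbers pair the libraries, but 3 libraries a group cannot decide this. Same-numbered libraries correlated at −0.16, −0.09 and 0.06 between −N split and −N, and at −0.13, 0.10 and 0.08 between −N split and +N split. With the number as a block *OlAMT1;2*/*OlAMT1;3* (OL02G002258) passed (adjusted p = 0.0415), as it did in the Wald (0.00633) and likelihood ratio tests (0.0135), and 328 genes were higher, 704 lower and 12 in the difference test.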

Other observations

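Other gene families with a description, chosen after their values were seen, also changed. Of 14 genes of sulfate assimilation and glutathione reduction, 7 were higher in −N split than in −N roots, none was lower and the median log2 fold change was 0.39. Sulfate is reduced in plastids and built into cysteine. The reductase gene OL07G001411 measured 42.1, 57.3 and 32.1 CPM in −N split and 21.9, 24.8 and 21.6 CPM in −N roots (0.94, adjusted p = 0.0144 in edgeR, and 0.0666 without −N replicate 1). The cysteine synthase gene OL04G000224 measured 83.7, 84.5 and 57.3 CPM against 34.9, 42.5 and 38.2 CPM (0.96, adjusted p = 0.00888), and 2 sulfite reductase genes, OL05G002004 and OL05G002017, rose by 0.45 and 0.43. The call of OL05G002017 ended on omitting −N replicate 1 (adjusted p = 0.0569). The values of these 2 genes ran nearly in proportion over the libraries, and they may share reads. The same holds for OL07G001411 and OL07G001412, so the 7 higher genes may not all be separate. The −N split libraries of OL07G001411 and OL04G000224 were all above the −N libraries.

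Of 11 genes of plastid isoprenoid precursors and of kaurene synthesis, the route to gibberellins and diterpenoids, 6 were higher and none was lower, with a median of 1.10. In all 6 the −N split replicate 2 library was the highest of the 6 libraries, and the calls rested on single libraries: 5 of the 6 kept theirs without −N split replicate 1, 3 without −N split replicate 3, 1 without −N split replicate 2 and none without −N replicate 1, −N replicate 2 or −N replicate 3. The ent-kaurene synthase gene OL02G001922 measured 31.2, 63.4 and 35.4 CPM in −N split and 13.6, 14.7 and 15.4 CPM in −N roots (1.57, adjusted p = 0.0311), with −N split replicate 2 the highest. It kept its call only on omitting −N split replicate 1 (0.0278) and not without −N split replicate 2 (0.131), −N split replicate 3 (0.0510), −N replicate 1 (0.118), −N replicate 2 (0.0724) or −N replicate 3 (0.0923). Of 6 sugar efflux transporter genes 4 were lower and 1 was higher (median −1.42), of 7 B-box zinc finger genes 4 were lower (median −0.79), and of 3 stearoyl desaturase genes 2 were higher (OL07G000986 by 1.31 and OL07G000987 by 1.62). These families were drawn from the described genes, of which 10.9% were lower and 3.79% higher.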
